A study of Mus musculus with 8 samples.

Results

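The genes described here are 39 components and targets of the unfolded protein response and the integrated stress response, taken from a fixed list of endoplasmic reticulum (ER) chaperones, stress sensors and ATF4-linked genes. All 39 have a row among the 18833 genes of the deposited matrix. They were read as an ER arm of 23 genes and an ATF4 arm of 16 genes. They were measured in mature oligodendrocytes, the myelinating cells of the brain, by single-cell RNA sequencing with 10x Genomics 3′ chemistry from the hippocampus and the cortex of 4 female mice. Mice 1 and 4 were wild-type (WT). Mice 3 and 6 were FIREdelta/delta KO animals, in which the FIRE enhancer within Csf1r is deleted and which, per the study, have no microglia while other brain macrophages are present. At collection, mice 1 and 3 had reached 1 month and 18 days of age and mice 4 and 6 had reached 1 month and 16 days. Libraries called cortex hold the left hemisphere minus its hippocampus, with olfactory bulb and cerebellum removed, whereas hippocampi came from both sides, and all tissues were dissociated with actinomycin D, a transcription inhibitor. The study compared genotypes to ask how oligodendrocytes differ when microglia are absent, and divided the cells into 4 clusters, Oligo1 to Oligo4.

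Secreted and membrane proteins fold in the ER with the help of chaperones and disulfide isomerases. When unfolded proteins accumulate, 3 sensors respond: IRE1 (Ern1) splices Xbp1 mRNA, ATF6 is cleaved to a transcription factor, and PERK (Eif2ak3) phosphorylates the translation factor eIF2α. Phosphorylation of eIF2α, which other stresses such as amino acid shortage also trigger, lowers general translation while favouring translation of ATF4, a factor that raises genes of amino acid synthesis and transport and of redox control. Oligodendrocytes make large amounts of membrane and secretory-pathway protein for myelin, and ER stress in these cells is known from inherited and inflammatory myelin disorders. The response acts in large part on splicing, phosphorylation and translation, which UMI counts (unique molecular identifiers, each one captured transcript 3′ end) do not measure.

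Sequences upstream of selected members are shown because the arms carry different response elements. A promoter was given by RefSeq (GRCm38.p6) for 36 of the 39 genes, and the search covered 250 bases before and 50 after each start, on both strands. The ER stress response element ERSE (CCAAT, 9 bases of any kind, CCACG) was found in 8 of 20 ER arm genes with a promoter, namely Calr, Canx, Creld2, Dnajc3, Hsp90b1, Hspa5, Pdia6 and Syvn1, in no ATF4 arm gene, and in 0.119% of all 32851 promoters. A second element, ERSE-II (ATTGG, 1 base of any kind, CCACG), was found in Dnajb11 and Herpud1 and in 0.0365% of all promoters. The ATF4 element (TGATG, 1 base of any kind, AA) was found in Asns, Chac1, Slc7a11, Trib3 and Vldlr of the ATF4 arm and in Herpud1, against 3.97% of all promoters. Asns, Chac1, Slc7a11 and Trib3 were detected too rarely for the genotype comparison over all cells below. Slc3a2, Ddit3, Phgdh, Psat1, Ddit4 and Mthfd2, described below, held no match. The core of the ATF6 site, TGACGTG, was found in Hspa5 alone among the members and in 2.01% of all promoters. A match describes letters, not binding. The 220 bases before the start are given 5′ to 3′ for 6 ERSE genes, for Phgdh, which held none of these motifs, and for Asns, with the fixed bases of each match in capitals.
Hspa5, chr2:34771870-34772089, plus strand: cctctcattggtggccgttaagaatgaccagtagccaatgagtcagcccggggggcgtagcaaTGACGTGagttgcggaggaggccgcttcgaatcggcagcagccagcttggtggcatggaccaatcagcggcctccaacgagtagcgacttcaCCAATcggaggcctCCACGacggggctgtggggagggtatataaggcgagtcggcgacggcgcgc
Hsp90b1, chr10:86705445-86705664, minus strand: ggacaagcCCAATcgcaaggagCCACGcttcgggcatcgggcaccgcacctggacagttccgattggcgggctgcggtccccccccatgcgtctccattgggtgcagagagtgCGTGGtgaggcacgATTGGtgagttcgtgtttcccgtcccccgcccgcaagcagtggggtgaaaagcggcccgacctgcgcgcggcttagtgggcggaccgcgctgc
Calr, chr8:84846932-84847151, minus strand: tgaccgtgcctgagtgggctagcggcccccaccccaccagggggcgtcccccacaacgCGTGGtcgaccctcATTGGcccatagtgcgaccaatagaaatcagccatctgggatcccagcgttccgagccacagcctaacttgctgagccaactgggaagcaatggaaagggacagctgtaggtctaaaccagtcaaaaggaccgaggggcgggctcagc
Canx, chr11:50325674-50325893, minus strand: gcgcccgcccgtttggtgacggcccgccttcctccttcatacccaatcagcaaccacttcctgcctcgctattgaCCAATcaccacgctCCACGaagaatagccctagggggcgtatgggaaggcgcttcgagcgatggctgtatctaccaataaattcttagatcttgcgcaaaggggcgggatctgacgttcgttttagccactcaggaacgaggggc
Pdia6, chr12:17266369-17266588, plus strand: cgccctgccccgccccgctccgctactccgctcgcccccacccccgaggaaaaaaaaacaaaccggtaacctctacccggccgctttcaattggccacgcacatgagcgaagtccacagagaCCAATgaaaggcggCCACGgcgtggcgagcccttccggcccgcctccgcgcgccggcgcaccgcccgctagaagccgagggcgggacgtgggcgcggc
Dnajc3, chr14:118937712-118937931, plus strand: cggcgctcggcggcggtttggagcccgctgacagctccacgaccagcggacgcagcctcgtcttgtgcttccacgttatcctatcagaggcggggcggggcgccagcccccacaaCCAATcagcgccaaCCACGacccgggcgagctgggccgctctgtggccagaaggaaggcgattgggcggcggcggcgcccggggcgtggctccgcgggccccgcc
Phgdh, chr3:98339970-98340189, minus strand: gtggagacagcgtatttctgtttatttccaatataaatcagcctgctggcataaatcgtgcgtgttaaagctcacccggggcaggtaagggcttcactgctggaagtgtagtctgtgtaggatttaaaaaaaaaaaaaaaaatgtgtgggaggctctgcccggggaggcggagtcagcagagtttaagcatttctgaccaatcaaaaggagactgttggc
Asns, chr6:7693210-7693429, minus strand: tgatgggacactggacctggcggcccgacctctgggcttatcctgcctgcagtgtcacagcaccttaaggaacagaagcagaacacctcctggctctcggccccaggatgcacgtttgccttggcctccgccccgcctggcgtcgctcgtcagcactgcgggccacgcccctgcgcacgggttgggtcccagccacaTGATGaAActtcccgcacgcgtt

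Libraries held 904 to 2784 cells, with medians of 9377 to 13725.5 UMIs per cell. Csf1r, the gene that holds the deleted enhancer, was detected in 5.31%, 5.81%, 5.83% and 10.2% of WT cells (hippocampus and cortex of mouse 1, then of mouse 4). The shares were 0.0718% and 0.0931% in hippocampus and cortex of KO mouse 3, 0.155% in the hippocampus of KO mouse 6 and 0 of 904 cells in its cortex, a count of 0 that is compatible with a share of 0.332% or less, counting error only. The oligodendrocyte markers Mbp, Mog, Mag, Mobp and Cnp had a UMI in every cell. Summed over 6 genes, microglial markers reached 0.461 to 1.07 UMIs per 10000 in WT libraries and 0.151 to 0.213 in KO libraries. Astrocyte markers were at 1.21 to 1.66 in all libraries, erythrocyte markers at 0.281 to 9.32, and progenitor, neuronal and endothelial lists at 0.222 or less. Barcodes shared between libraries concerned 42 of 12581 cells.

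Levels of the members spanned a wide range. Levels are means over cells of log2(normalized UMI count + 1), and since 1 UMI stands for 1 captured 3′ end whatever the transcript's length, UMIs per 10000 can be set side by side between genes. Hsp90b1, the ER form of HSP90, took 4.12 to 6.93 UMIs per 10000 across libraries, Phgdh, the first enzyme of serine synthesis, took 4.29 to 5.90, and Hspa5 (BiP, the main ER chaperone and a brake on all 3 sensors) took 2.27 to 3.75. At the other end, Trib3, an inhibitor induced by ATF4, had 6 UMIs in all cells together, and Chac1, a glutathione-degrading enzyme raised by ATF4, had 12. Asns (asparagine synthetase), Sesn2 (a stress-induced regulator of mTORC1), Slc7a11 (the cystine transporter) and Ern1 had a UMI in 3.59%, 1.62%, 1.61% and 4.63% of cells. Those 6 genes failed the filter of a UMI in 5% of cells, averaged over mice and then genotypes, for the genotype comparison, so 33 members were tested, 22 of the ER arm and 11 of the ATF4 arm. The values of Ddit3 (CHOP, the pro-apoptotic factor of the response) belong to 1 of 2 overlapping genes annotated under that name on chromosome 10 (GRCm38), between which reads could be divided, and are uncertain.

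No member passed the threshold between genotypes when the mouse was the replicate. limma on the mouse means of all oligodendrocytes called 0 of 33 members and 0 of 9257 genes (0% of genes). At an unadjusted p under 0.05 there were 209 genes and no member, and edgeR's quasi-likelihood test on UMI sums called 8 genes (0.0864%) and no member. The median KO minus WT difference was 0.02 over members and 0.00 over all genes tested, with 23 members above 0 and 10 below. With 2 mice a genotype, an exact permutation test of a single gene cannot go below 0.333, and limma's intervals were wide. Immediate early genes, a sign of cell activation or of dissociation, were higher in KO libraries. Summed over 6 genes they were at 2.16 to 2.32 UMIs per 10000 in WT libraries and at 2.38 to 3.33 in KO libraries, without overlap. They were at 2.90 to 5.07 in Oligo1 and at 2.29 to 2.51 in the other KO cells, which overlaps the WT range. In UMIs not scaled to depth, Fos had 51 in all WT cells and 1840 in all KO cells. In the same order Junb had 110 and 1058, Egr1 53 and 518, Ier2 137 and 263, Jun 13621 and 16593, and Dusp1 941 and 1108. Their part in the genotype differences of the members was not tested.

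Slc3a2, the heavy chain shared by several amino acid transporters and linked to ATF4, had the largest difference. Its level was 0.59 and 0.68 in hippocampus and cortex of WT mouse 1, 0.58 and 0.63 in WT mouse 4, 0.79 and 0.90 in KO mouse 3, and 0.67 and 0.72 in KO mouse 6. The KO and WT mice did not overlap in their means, although the hippocampus of KO mouse 6 lay just below the cortex of WT mouse 1. The difference was 0.15 with a standard error of 0.06 and a 95% interval of -0.04 to 0.33 (limma, adjusted p = 1.00). Without KO mouse 3 it was 0.07. Both KO means lay above both WT means also for Manf, a secreted neurotrophic factor retained in the ER, and Herpud1, a component of ER-associated degradation, and below them for P4hb, a disulfide isomerase. Those are 3 members above and 1 below, against 11.9% and 8.0% of all genes tested. For Manf the margin was small, with 0.646 in KO mouse 6 and 0.643 in WT mouse 4.

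The chaperones instead separated the KO mice from each other. Hsp90b1 stood at 2.53 and 2.41 in hippocampus and cortex of KO mouse 3 and at 2.08 and 1.94 in KO mouse 6, with 2.24, 2.13, 2.22 and 2.10 in hippocampus and cortex of WT mouse 1 and then of WT mouse 4. KO mouse 3 was the highest and KO mouse 6 the lowest within each tissue, so the WT mice lay between them. Calr, a lectin chaperone that also buffers calcium, had levels of 1.99 and 1.95 in KO mouse 3, 1.44 and 1.38 in KO mouse 6, 1.71 and 1.71 in WT mouse 1 and 1.54 and 1.52 in WT mouse 4. Hspa5 had levels of 1.74 and 1.66 in KO mouse 3, 1.49 and 1.30 in KO mouse 6, 1.58 and 1.49 in WT mouse 1 and 1.60 and 1.40 in WT mouse 4. For all 3 genes KO mouse 3 lay above and KO mouse 6 below both WT mice within each tissue, and the gap between KO mice exceeded the gap between tissues of one mouse. Pdia3, an isomerase that works with Calr on glycoproteins, had levels of 1.59 and 1.565 in KO mouse 3, 1.21 and 1.09 in KO mouse 6, 1.42 and 1.34 in WT mouse 1 and 1.27 and 1.13 in WT mouse 4.

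**Figure D1:**
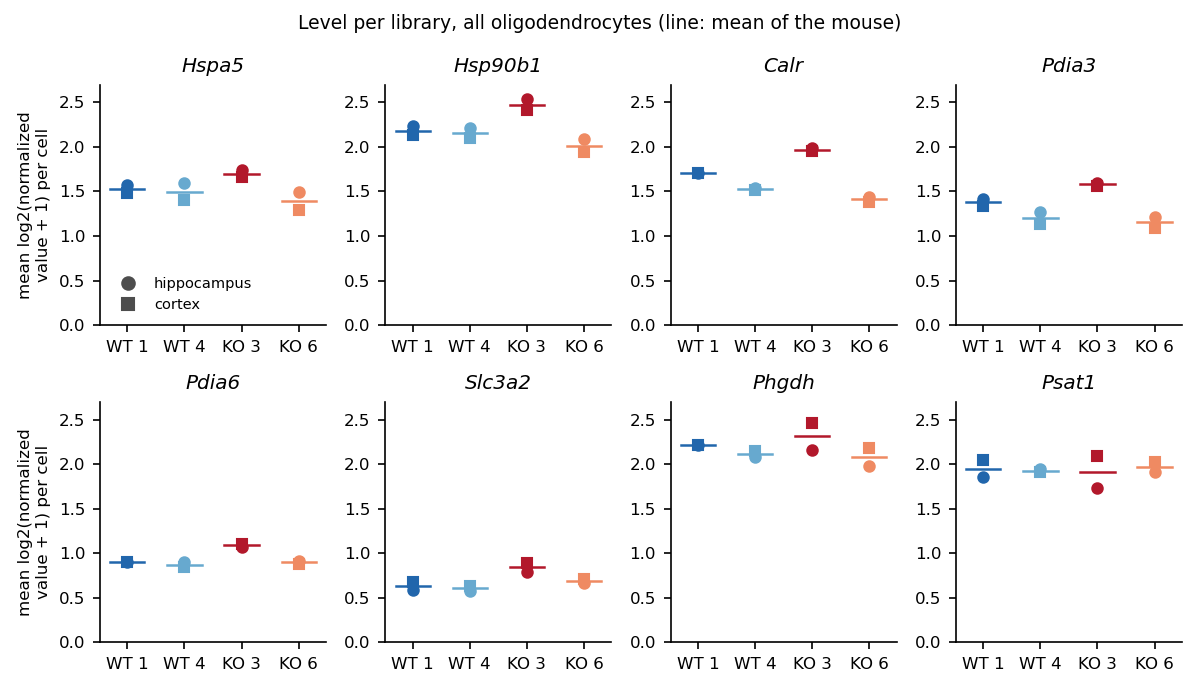
Level of 8 members in each library, as the mean over all oligodendrocytes of log2(normalized value + 1), with circles for hippocampus, squares for cortex and a line at the mean of the mouse. For Hsp90b1, Calr, Hspa5 and Pdia3, KO mouse 3 is the highest and KO mouse 6 the lowest, while for Slc3a2 both KO mice lie above both WT mice on average.

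Each batch, as numbered in the deposited cell table, held 1 tissue of a WT and a KO mouse of the same age, which allows the genotype difference to be read within batches. In the batches of mice 1 and 3, KO minus WT for Hsp90b1 was 0.30 in hippocampus and 0.28 in cortex. In those of mice 4 and 6 it was -0.13 and -0.15. Of 33 members, 12 had this pattern of a higher KO value in both batches of mice 1 and 3 and a lower one in both batches of mice 4 and 6, against 6.94% of all genes tested, and the pattern was noticed after the values had been seen. All but Vldlr, a lipoprotein receptor, were ER arm genes: Hspa5, Hsp90b1, Calr, Pdia3, Pdia4, Dnajc3, Creld2, Hyou1, Syvn1, Edem1 and Xbp1. No member had the opposite pattern, which 6.00% of genes had. Age, batch and animal cannot be told apart in this contrast. Median UMIs per cell in hippocampus and cortex were 9579.5 and 13725.5 in KO mouse 3 and 9377 and 12332.5 in WT mouse 1. They were 10794 and 13250.5 in KO mouse 6 and 13243 and 11048 in WT mouse 4. The part of depth in the pattern was not tested. Batch 6 held the cortex of mice 4 and 6, with median mitochondrial shares of 6.29% in WT mouse 4 and 6.23% in KO mouse 6. Medians of the other libraries were 4.54% to 5.46%. The study describes the batch of that number as poorer in quality than the rest, with outlying values. The part of batch quality in the batch counts, in the gap between KO mice and in the tissue differences below was not tested. The summed immediate early genes were at 3.33 and 2.46 UMIs per 10000 in hippocampus and cortex of mouse 3 and at 2.63 and 2.38 in mouse 6, and their part in the result was not tested.

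Only 4 members were higher in KO in every batch, Pdia6, Manf, Atf4 and Slc3a2, against 13.4% of all genes tested. No member was lower in every batch, against 9.90% of genes. Atf4, whose protein drives its namesake arm, had KO minus WT differences of 0.02 and 0.05 in hippocampus and cortex of mice 1 and 3 and of 0.03 and 0.02 in those of mice 4 and 6. Pdia6, an isomerase that limits signalling by the sensors, had differences of 0.17, 0.20, 0.02 and 0.04 in the same order. Manf had 0.16, 0.11, 0.0005 and 0.0056, so it was barely higher with mice 4 and 6. In Oligo2 to Oligo4 cells its differences there were -0.0436 and -0.0107. Within Oligo2 to Oligo4 cells, that is, without the Oligo1 cells that KO mice hold and WT mice nearly lack, Slc3a2 alone was still higher in all 4 batches, by 0.10, 0.17, 0.03 and 0.06, against 10.2% of genes.

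**Figure D2:**
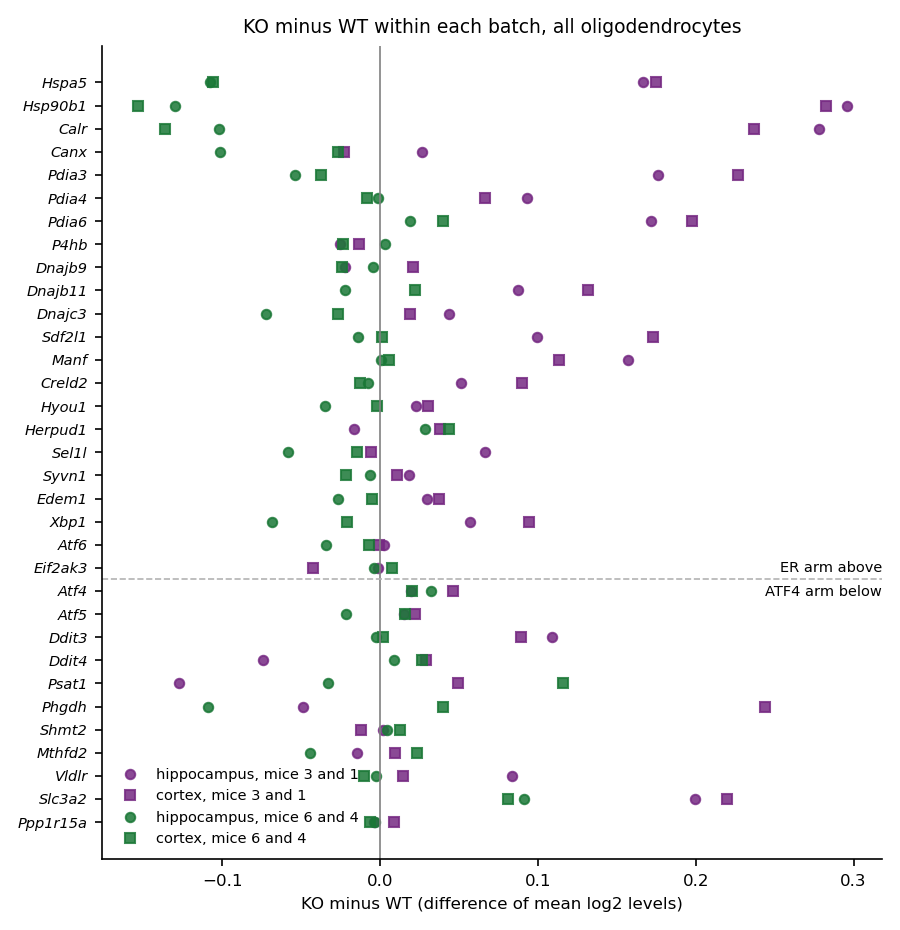
KO minus WT difference of mean log2 levels for the 33 members tested, 1 point per batch, with purple for mice 3 and 1 and green for mice 6 and 4 (circles hippocampus, squares cortex). Most chaperones and isomerases lie to the right of 0 in purple and at or left of 0 in green. Slc3a2, Atf4, Pdia6 and Manf lie to the right in all 4, Manf at only 0.0005 and 0.0056 in green.

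As arm scores, the mean over an arm's genes of their levels, the ER arm was at 0.68 and 0.68 in WT mice 1 and 4, and at 0.76 and 0.65 in KO mice 3 and 6. The difference of means, 0.03, was smaller than the standard deviation between the KO mice, 0.08. The ATF4 arm was at 0.48 and 0.48 in WT mice and at 0.51 and 0.49 in KO mice. Its difference was 0.02, with a standard deviation of 0.01 between KO mice. Without KO mouse 3 the ER arm difference was -0.03 and without KO mouse 6 it was 0.08, and the ATF4 arm difference without each mouse in turn was 0.01 to 0.03.

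Within clusters the genotypes did not differ past the threshold either. limma called no gene, a background of 0%, in Oligo2 to Oligo4 together and in Oligo2, Oligo3 and Oligo4 each, with 133, 139, 103 and 282 genes at an unadjusted p under 0.05. edgeR called 3, 4, 3 and 25 genes (0.0325%, 0.0430%, 0.0328% and 0.266%) and no member. The single member with an unadjusted p under 0.05 was Canx, a membrane-bound lectin chaperone, in Oligo4, where it averaged 1.74 and 1.73 in the WT mice and 1.68 and 1.66 in the KO mice, a difference of -0.06 with a standard error of 0.02 (limma, adjusted p = 1.00). Phgdh had the largest difference in Oligo2, 0.10, and in Oligo3, 0.11, and without KO mouse 3 these were -0.04 and -0.02.

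Several members were highest in the same cluster in all WT and KO libraries. These clusters were drawn from the same expression values, so their levels are a description with no test. Hsp90b1, Calr, Canx, P4hb and Ddit4, a stress-induced inhibitor of mTORC1, were highest in Oligo4 among Oligo2 to Oligo4 in all 8 libraries, as were 6.14% of all genes tested. Psat1, Phgdh and Mthfd2, a mitochondrial one-carbon enzyme, were highest in Oligo2 in all 8. They were 3 of 33 members, near the share of 8.64% over all genes. No member was highest in Oligo3 in all 8, where 1.45% of genes were. For Psat1, the second enzyme of serine synthesis, the mean over WT libraries was 2.19 in Oligo2, 1.91 in Oligo3 and 1.54 in Oligo4, and over KO libraries it was 2.26, 1.98 and 1.55. For Canx the corresponding WT means were 1.62, 1.60 and 1.73 and the KO means 1.53, 1.56 and 1.67. Psat1 thus ran from high to low in the order Oligo2, Oligo3, Oligo4, while Canx was highest at the other end.

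**Figure D3:**
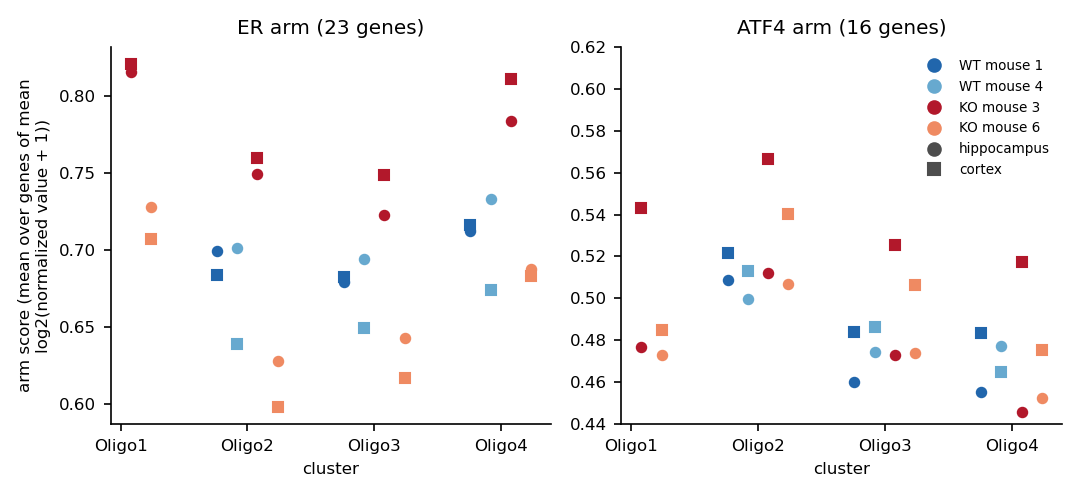
Arm score, the mean over the genes of an arm of their mean log2(normalized value + 1), in each cluster and library (circles hippocampus, squares cortex), for libraries with at least 20 cells of the cluster. The y axes do not start at 0. For the ER arm, KO mouse 3 is the highest of its tissue in each of Oligo2 to Oligo4 and KO mouse 6 the lowest except in Oligo4 of the cortex. Oligo1 (0.71 to 0.82) lies above Oligo2, Oligo3 and Oligo4 of the same library, with 0.82 against 0.81 in Oligo4 in the cortex of mouse 3.

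Oligo1 held 1552 cells of KO mice and 6 cells of WT mice, and was compared with the other cells of the same KO library. Because the clusters were drawn from these values, the numbers are a description. Of 34 members that passed the filter, 18 were higher in Oligo1 in all 4 KO libraries, against 19.6% of 9321 genes, and 5 were lower in all 4, against 15.8%. The ER arm held 15 of the higher genes out of 23 and 1 of the lower, and the ATF4 arm held 3 of the higher and 4 of the lower out of 11. The 18 and the 15 include Ern1, which failed the filter in the genotype comparison, with a UMI in 4.63% of all cells. A gene this near the filter may pass only through the group where it is higher. Its differences were 0.0026, 0.0119, 0.0009 and 0.0268 (hippocampus and cortex of mouse 3, then of mouse 6). The median Oligo1 minus other difference was 0.07 for the ER arm and 0.01 for the ATF4 arm, and 0.00 over all genes.

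Chaperones and isomerases made up most of the higher genes. Hspa5 had levels of 1.99, 1.86, 1.65 and 1.56 in Oligo1 and of 1.63, 1.63, 1.44 and 1.26 in the other cells (hippocampus and cortex of mouse 3, then of mouse 6). Oligo1 was thus higher within every library, by 0.28 on average with a standard deviation of 0.07, and in UMIs per 10000 its level was 1.29 to 1.46 times that of the other cells. Hsp90b1 had levels of 2.66, 2.54, 2.30 and 2.10 in Oligo1 against 2.48, 2.39, 2.02 and 1.92, a ratio of 1.14 to 1.31 in UMIs. Of 11 chaperones and co-chaperones, 9 were higher in all 4 libraries, and the disulfide isomerases Pdia3, Pdia4, Pdia6 and P4hb all were. Manf and Sdf2l1, a co-chaperone of Hspa5, had ratios of 1.18 to 1.425 and of 1.28 to 1.46. Dnajb9, another co-chaperone of Hspa5 and a known target of spliced Xbp1, went the other way, with levels of 0.39, 0.43, 0.36 and 0.36 in Oligo1 and of 0.41, 0.48, 0.40 and 0.37 in the other cells, a mean difference of -0.03.

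Of the genes found above to hold an ERSE, all but Syvn1 were higher in Oligo1 in all 4 libraries. They were Hspa5, Hsp90b1, Calr, Canx, Pdia6, Dnajc3 and Creld2. Syvn1, the ubiquitin ligase of ER-associated degradation, was higher in 2 of 4. The part of the motif in these differences was not tested. Isomerases without the motif in this window, such as Pdia3 and Pdia4, were higher too. None of the 4 genes of ER-associated degradation (Herpud1, Sel1l, Syvn1 and Edem1) was higher or lower in all 4 libraries, and their differences averaged 0.00 to 0.02. Xbp1 was higher by 0.07 on average, with levels of 0.45, 0.53, 0.50 and 0.56 against 0.42, 0.48, 0.42 and 0.44. Ern1 was higher by 0.01, with levels of 0.03 to 0.06 in Oligo1, and Atf6 and Eif2ak3 were mixed, each higher in 1 of 4 libraries.

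In the ATF4 arm, Slc3a2 and the serine-synthesis enzymes lay in opposite directions. Slc3a2 had levels of 1.01, 1.18, 0.88 and 0.85 in Oligo1 and of 0.69, 0.85, 0.60 and 0.70 in the other cells, a ratio of 1.31 to 1.69 in UMIs per 10000. Its lowest Oligo1 value equalled the highest of the other cells to 2 decimals. Ddit3 had levels of 0.79, 0.76, 0.63 and 0.56 in Oligo1 against 0.51, 0.52, 0.41 and 0.43, a ratio of 1.41 to 1.73. Both genes were thus higher within every library, and Vldlr was higher by 0.11 on average. Phgdh stood at 1.90, 2.17, 1.71 and 1.91 in Oligo1 and at 2.28, 2.50, 2.06 and 2.22 in the other cells, a mean difference of -0.34 with a standard deviation of 0.03. Psat1 stood at 1.504, 1.87, 1.64 and 1.69 against 1.83, 2.13, 1.99 and 2.06, a mean difference of -0.33. In UMIs per 10000, Phgdh in Oligo1 was 0.75 to 0.80 times and Psat1 0.69 to 0.81 times the level of the other cells. Mthfd2 and Ddit4 were lower in all 4 libraries as well, with mean differences of -0.04 and -0.09. Atf4 itself was higher in 3 of 4 libraries, by 0.05 on average, and lower in the cortex of mouse 6. Atf5, Shmt2 (the mitochondrial serine hydroxymethyltransferase) and Ppp1r15a (GADD34, which restores eIF2α to its unphosphorylated form) were mixed.

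**Figure D4:**
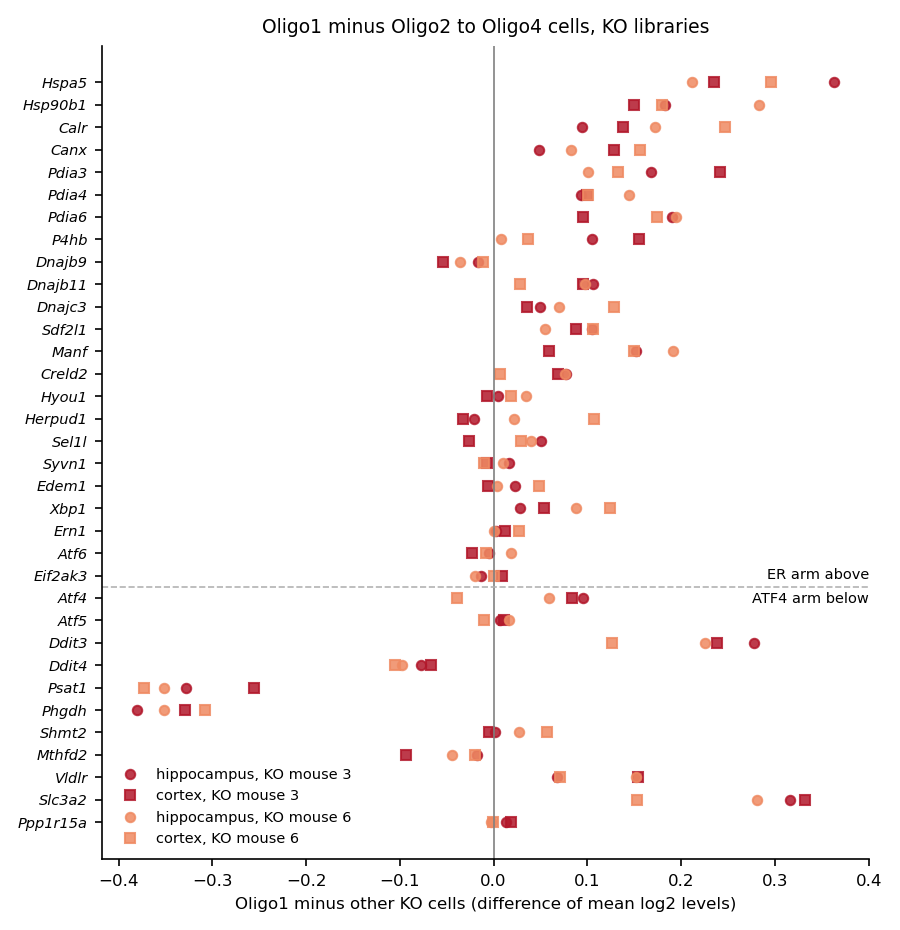
Oligo1 minus Oligo2 to Oligo4 difference of mean log2 levels for the 34 members that passed the filter, 1 point per KO library (dark red mouse 3, light red mouse 6; circles hippocampus, squares cortex). The points of most chaperones, all 4 isomerases, Ddit3 and Slc3a2 lie to the right of 0, and those of Phgdh and Psat1 lie near -0.3.

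The comparison cells mattered most for Oligo4. Against Oligo2 cells alone, 19 of 33 members were higher in Oligo1 in all 4 libraries (18.4% of genes) and 4 lower (19.3%). Against Oligo3 alone, 17 of 34 were higher (22.4%) and 5 lower (15.2%). Against Oligo4 alone, 11 were higher (15.9%) and 3 lower (16.7%), and the ER arm median was 0.01. Hspa5 was still higher by 0.18 and Slc3a2 by 0.21, and the difference of Phgdh was -0.16, but Hsp90b1 was higher by 0.04 and in 3 of 4 libraries, Calr and P4hb had mean differences of -0.05, and Psat1 was higher by 0.12. Hsp90b1, Calr, Canx, Pdia3, P4hb, Dnajb11 and Vldlr were therefore higher in all 4 libraries against Oligo2 and against Oligo3 but not against Oligo4. P4hb was lower than in Oligo4 in all 4 libraries. Hspa5, Pdia4, Pdia6, Dnajc3, Sdf2l1, Manf, Creld2, Ddit3 and Slc3a2 were higher in all 4 libraries against each cluster.

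Beside these differences, immediate early genes were at 2.90 to 5.07 UMIs per 10000 in Oligo1 and at 2.29 to 2.51 in the other KO cells, with 4 of 6 genes higher in all 4 libraries. Oligo1 had the lowest share of mitochondrial UMIs of the KO clusters. The median in KO cells was 4.13%, against 4.56%, 5.57% and 4.51% in Oligo2, Oligo3 and Oligo4. Its median of 10746.5 UMIs lay above that of Oligo3, 10504.5, and below those of Oligo2, 11807, and Oligo4, 12062. Astrocyte markers were at 1.03 to 1.24 UMIs per 10000 in Oligo1 and at 1.33 to 1.63 in the other KO cells, erythrocyte markers at 0.42 to 3.40 and 0.772 to 10.3, and microglial markers at 0.151 to 0.225 and 0.146 to 0.211. The part of these differences in the result was not tested.

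Other genes of the pathway were listed apart from the members. Of 42 further genes of ER folding and translocation, 39 passed the filter, 17 were higher in Oligo1 in all 4 KO libraries and 3 lower, against 19.6% and 15.8% of all genes, with a median difference of 0.03. The largest were Ssr4, a subunit of the translocon-associated complex, with a mean difference of 0.16, and Ppib, an ER prolyl isomerase, with 0.15. Spcs1, a subunit of the signal peptidase, followed with 0.12. Of 26 tested genes of ER-associated degradation and control of the response, 5 were higher and 3 lower, a share of higher genes near that background, with a median of 0.01. Of 28 tested genes of the integrated stress response, 6 were higher and 4 lower, again near the background, with a median of 0.01. Iars, a tRNA synthetase, had a mean difference of 0.17, and the amino acid transporters Slc38a2 and Slc6a9 had -0.29 and -0.16. Between genotypes none of the tested genes of these 3 lists passed limma's threshold. The largest differences were those of Slc38a2, with levels of 2.27 and 2.25 in WT mice and 1.95 and 2.16 in KO mice (-0.21), of Vcp, the ATPase that extracts ER proteins for degradation (0.08), and of Spcs1 (0.08). The single gene with an unadjusted p under 0.05, named after its values were seen, was Eif2s1, the α subunit of eIF2, with levels of 0.37 and 0.35 in WT mice and of 0.40 and 0.39 in KO mice (limma, adjusted p = 1.00).

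No member passed the threshold between hippocampus and cortex. Across 8 libraries with genotype in the model, limma called no gene (0%), with 490 genes and 4 members (P4hb, Ddit4, Mthfd2 and Psat1) at an unadjusted p under 0.05. edgeR called no gene either (0%). Both fits took the 2 libraries of a mouse as independent. With the mouse as a block, Psat1 was no longer under 0.05 (limma, unadjusted p = 0.0653). Members under 0.05 then included Slc3a2, Hspa5, Pdia4 and Pdia3 (limma, unadjusted p = 0.0015, 0.0032, 0.0033 and 0.0062). Of 33 members, 8 were higher in hippocampus in all 4 mice, against 6.78% of genes, and 7 of the 8 were ER arm genes: Hspa5, Hsp90b1, Pdia3, Pdia4, P4hb, Hyou1 and Atf6. The lower ones numbered 3, against 18.6% of genes, and were Ddit4, Phgdh and Slc3a2. Over the 22 ER arm genes the median difference was 0.01, over the 11 ATF4 arm genes it was -0.03, and over all genes -0.01.

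Hsp90b1 was the steadiest, with hippocampus minus cortex differences of 0.11, 0.12, 0.12 and 0.14 in mice 1, 3, 4 and 6. With the mouse as a block, which pairs the libraries of each animal, the difference was 0.12 with a standard error of 0.01 (limma, adjusted p = 0.0583), just above the threshold of 0.05, and no member was called. The share of all genes called by this fit is not given here, so no background stands beside that count. Without the block limma gave an adjusted p of 0.999. Hspa5 had differences of 0.09, 0.08, 0.20 and 0.19 (adjusted p = 0.184 with the block in limma). Slc3a2 had differences of -0.08, -0.10, -0.06 and -0.05 in the same order of mice (adjusted p = 0.167 with the block in limma). Psat1, which had the largest difference, -0.155 with a standard error of 0.06 without the block, was lower in 3 of 4 mice.

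Phgdh was the member whose tissue difference differed most between genotypes. Its hippocampus minus cortex differences were -0.0029 and -0.06 in WT mice 1 and 4, and -0.30 and -0.21 in KO mice 3 and 6. The KO minus WT difference of these differences was -0.22 with a standard error of 0.04 and a 95% interval of -0.33 to -0.11 (limma, adjusted p = 0.792), so it did not pass the adjustment. limma called no gene for this term (0%), with 574 genes at an unadjusted p under 0.05 and Phgdh the only member among them. Oligo1, where Phgdh was lower, held 859 of 2784 cells in the hippocampus of KO mouse 3 and 147 of 1074 in its cortex, and 448 of 1934 and 98 of 904 in mouse 6; the part of these shares in the result was not tested.

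**Figure D5:**
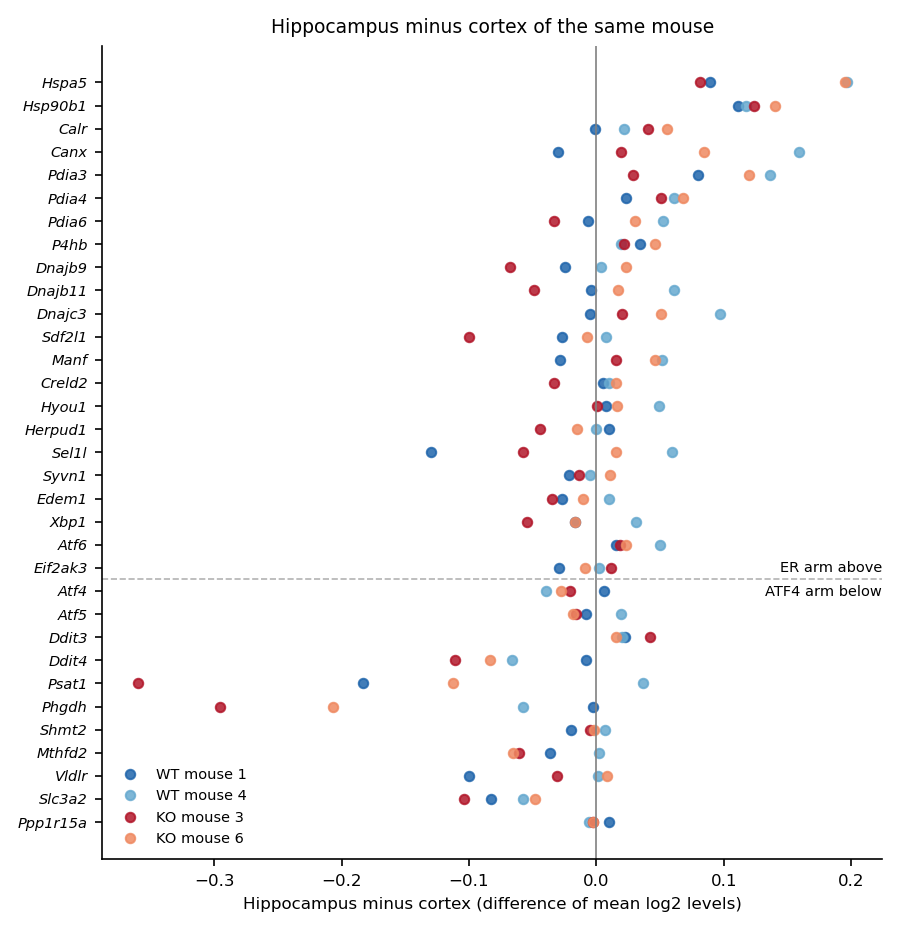
Hippocampus minus cortex difference of mean log2 levels within each mouse for the 33 members tested, with blue for WT and red for KO mice. Hsp90b1, Hspa5, Pdia3, Pdia4 and P4hb lie to the right of 0 in all 4 mice, and Slc3a2 and Ddit4 lie to the left in all 4.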

How the data were processed

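Droplet-based single-cell RNA sequencing of sorted live brain cells was used, in 8 libraries of 4 mice. The authors aligned reads with Cell Ranger 5.0.0 (per the labels) to a mouse mm10 reference, kept clusters with oligodendrocyte markers and without those of other cell types, removed low-quality cells, and normalized with scran. Clusters were built by the authors after batch correction, which the deposited values do not carry. They deposited a log2 matrix, log2(UMI count / size factor + 1), and a table with UMI counts, the percent of mitochondrial UMIs, a size factor (a scaling score) and the cluster of each cell. The matrix holds 18833 genes and 12581 cells, each with at least 5039 UMIs and at most 9.99% mitochondrial UMIs. UMI counts were recovered as whole numbers, within 0.001, for all values above 0. No doublet caller was run here, since the authors gated doublets out by scatter.

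Mean log2 values per library were averaged over both tissues of a mouse, the replicate, and compared with limma 3.58.1 in R 4.3.3 over all genes detected in 5% of cells or more (a mean over mice, then groups), with Benjamini-Hochberg adjustment at 0.05. Hippocampus and cortex were compared over libraries, with genotype but no block for mouse in the main fit. Cluster means needed 20 cells per library. edgeR 4.0.16 was run on recovered UMI sums as an alternative. Others were log2(mean + 0.1), filters of 10% or none, age or mouse as a block, single tissues and each mouse left out. The fits were tested on simulated data. With no label naming separate litters or dissections, p-values between genotypes measure the spread among these 4 mice. Those of the main tissue fit measure the spread among 8 libraries, which come in pairs from the same animals. Hippocampus and cortex with the same mouse number come from the same animal, and their deviations from the group means had correlations across genes of 0.84 in WT and 0.85 in KO mice. Every member could be named, with test statistics for those past a threshold or among the 5 largest differences; other pathway genes were named where past the threshold or, where none passed, for the 3 largest differences. The members and the gene lists were chosen with earlier results of these data known. Promoters were taken from RefSeq (GRCm38.p6). One marker gene is not reported here.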

Additional observations from a re-analysis of the deposited data

How the results depend on the processing

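No alternative called a member in any comparison. The lowest adjusted p over the alternatives was 0.461 for KO against WT in all oligodendrocytes, 0.692 in Oligo2 to Oligo4, 0.694 in Oligo2, 0.803 in Oligo3, 0.527 in Oligo4, 0.0583 between tissues and 0.417 for genotype by tissue. With the mouse as a replicate block, which pairs hippocampus and cortex of an animal, the tissue comparison still called 0 members, with no share over all genes given beside it. Leaving out 1 mouse at a time, KO minus WT differences changed sign for 10 of those followed here, the 5 members with the largest differences in each comparison, with the lowest value without KO mouse 3 and the highest without KO mouse 6: over all cells Pdia3 (-0.1351 to 0.2912) and Hsp90b1 (-0.1554 to 0.3025), in Oligo2 to Oligo4 Phgdh (-0.02689 to 0.2284) and Pdia6 (-0.01885 to 0.1656), in Oligo2 Phgdh (-0.03945 to 0.2369) and Pdia6 (-0.07972 to 0.2059), in Oligo3 Phgdh (-0.0157 to 0.2346), Pdia6 (-0.007458 to 0.1557) and Calr (-0.2245 to 0.3235), and in Oligo4 Pdia3 (-0.1351 to 0.372). Without WT mouse 4 the sign also changed for Pdia3 over all cells (-0.01145) and in Oligo4 (-0.009796) and for Calr in Oligo3 (-0.04706). Leaving out each mouse in turn, the ER arm score difference was -0.03 to 0.08. On the log2(mean + 0.1) scale the ATF4 arm score difference was 0.047, and the Oligo1 medians were 0.153 for the ER arm and 0.042 for the ATF4 arm.

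These alternatives were chosen after seeing the data. Against Oligo4 cells alone, 11 members were higher and 3 lower in Oligo1, the arm medians were 0.0068 and 0.029, and the sign changed for Calr (-0.052), Canx (-0.0016), P4hb (-0.049), Ern1 (-0.010), Psat1 (0.124) and Mthfd2 (0.015). The count of members higher in KO in all 4 batches was 1 in Oligo2 to Oligo4 cells, against 10.2% of all genes, and 1 in Oligo3 cells. That of members higher in hippocampus in all 4 mice was 4 in Oligo3 cells. No share over all genes is given for the Oligo3 counts, so they cannot be set against a background. The cause of these changes was not tested. Trib3 and Chac1, with 6 and 12 UMIs, were too rare to compare.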
